A study of Homo sapiens with 6 samples.

Results

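Cholesterol and fatty acids are built from the same precursor, acetyl-CoA, by separate chains of enzymes, and the genes of both chains were measured in the lines PC-3/Mc and PC-3/S. Both are sublines of PC-3, an established human prostate carcinoma line, and the series concerns how tumor-initiating properties relate to the epithelial-mesenchymal transition. The members are 42 genes chosen by function, among them 18 enzymes of sterol synthesis and 15 enzymes of fatty acid synthesis and activation. The other members are 5 genes of the SREBP control system, the sterol carrier STARD4, and 3 genes of sterol export and lipoprotein uptake. A gene counted as measured where a probe set of the array carried its symbol alone, which held for 37 of the 42 members, out of 19775 genes in all. CYP51A1, ELOVL1 and FADS1 share all of their 7 probe sets with another gene and are not analysed here, and FDFT1 and ACSL3 are not analysed here either.

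Each line was measured on 3 one-colour Affymetrix arrays, labelled as biological replicates 1 to 3, from untreated cells lysed while still subconfluent. The labels do not say how the sublines were derived, whether each is 1 clone, or whether replicates were separate cultures, so the p-values reflect array-to-array spread alone, part of which may be technical. Values are the deposited log2 expression values. A difference is the PC-3/Mc mean less the PC-3/S mean, in log2 units, given ± SE, and means are given ± SD, with n = 3 arrays per line throughout. Genes are called at an adjusted p under 0.05 from limma with Benjamini-Hochberg adjustment over all genes. Levels of different genes come from different probes and are not compared with each other.

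In cells, the sterol chain runs from acetyl-CoA through mevalonate and farnesyl pyrophosphate to squalene, lanosterol and cholesterol. Its genes are known targets of the transcription factor SREBP2, encoded by SREBF2, while SREBP1, encoded by SREBF1, is best known for the genes of fatty acid synthesis. SCAP escorts the SREBP precursors to the Golgi for cleavage, INSIG proteins hold them back in the endoplasmic reticulum when sterols are plentiful, and INSIG1 is itself a target of SREBP. When sterols accumulate, oxysterols activate the nuclear receptor LXR, whose targets export cholesterol and lower its uptake. Prostate carcinomas are known for active lipid synthesis.

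The arrays of the lines were alike in overall level. Array medians lay between 4.98 and 5.09, and correlations across probe sets were 0.995 to 0.997 within lines and 0.943 to 0.946 between them. Over all genes 45.9% were called, 23.2% higher and 22.7% lower in PC-3/Mc, 11.5% were called with a difference of at least 2-fold, and the lines had no overlapping arrays for 53.1%. The median difference of all genes was -0.03. CTNNA1, a gene deleted in PC-3, read up to 5.18, and readings up to this level are treated as possible background. The epithelial markers KRT8, KRT18, KRT19 and EPCAM were above it in both lines. All 4 were called: KRT8 (1.03), KRT18 (1.16) and the adhesion molecule EPCAM (5.43, at 11.88 ± 0.19 and 6.44 ± 0.22) higher in PC-3/Mc and KRT19 (-0.48) lower. Of prostate luminal markers, KLK2 read 5.37 and 5.49, close to it, TMPRSS2 was lower in PC-3/Mc (-0.41), and KLK3 read 6.39 and 6.73 on its brightest probe set and under 5.18 on the other 2. Of adipocyte markers ADIPOQ and LEP were under it in both lines and PLIN1 near it, while FABP4, a fatty acid binding protein, was lower (-2.84) and CIDEC, a lipid droplet protein, higher (1.02) in PC-3/Mc. Of 5 hepatocyte markers 0 were called by limma, with 1, TTR, at an unadjusted p under 0.05. CYP3A4 (6.39 and 6.42) and TTR (5.47 and 5.70) read above 5.18 in both lines. APOA1 (5.18 and 5.39) and SERPINA1 (5.19 and 5.02) were near it, and ALB (3.78 and 3.76) was under it. Of leukocyte markers PTPRC and CD14 were under 5.18 in both lines, and ITGAM, near it, was lower (-0.30). CD3D averaged 5.32 and 5.46, above 5.18 in both lines though close to it, and was not called. Of endothelial markers CDH5, VWF and TEK were at or under 5.18. PECAM1 (0.60) was called higher, while KDR, under 5.18 in PC-3/Mc, was at least 2.07-fold lower. The part of these markers in the results below was not tested.

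Promoter sequences are shown first for SREBF2 and for 6 members that differed by more than 2-fold, chosen after their values were seen, because SREBP is known to act on such promoters together with the factor NF-Y. Each run holds the 200 bases before the annotated start, 5′ to 3′ on the gene's strand, from RefSeq on GRCh38.p14. Capitals mark CCAAT, the NF-Y motif, or its complement ATTGG, and in SREBF2 also a sterol regulatory element of 10 letters. The first 4 genes were lower in PC-3/Mc, SREBF2 encodes the factor itself, and the last 2 genes were higher. MYLIP also differed by more than 2-fold and has 2 CCAAT matches, at positions -109 and -68, but is not printed, and no window for SQLE was used here.
HMGCS1 (chr5:43313413-43313612, minus strand): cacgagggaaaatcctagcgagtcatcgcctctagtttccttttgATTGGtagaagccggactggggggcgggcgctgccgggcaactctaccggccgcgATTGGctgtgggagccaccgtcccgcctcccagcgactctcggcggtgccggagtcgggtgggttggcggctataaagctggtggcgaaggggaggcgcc
LSS (chr21:46228775-46228974, minus strand): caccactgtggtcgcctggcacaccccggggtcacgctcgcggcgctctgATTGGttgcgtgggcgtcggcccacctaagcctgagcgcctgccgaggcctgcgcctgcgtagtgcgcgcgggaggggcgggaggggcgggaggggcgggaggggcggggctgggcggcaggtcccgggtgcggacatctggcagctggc
TM7SF2 (chr11:65111672-65111871, plus strand): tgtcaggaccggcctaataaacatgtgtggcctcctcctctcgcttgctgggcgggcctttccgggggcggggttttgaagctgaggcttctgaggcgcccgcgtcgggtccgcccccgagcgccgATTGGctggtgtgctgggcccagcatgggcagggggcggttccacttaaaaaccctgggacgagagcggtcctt
INSIG1 (chr7:155297678-155297877, plus strand): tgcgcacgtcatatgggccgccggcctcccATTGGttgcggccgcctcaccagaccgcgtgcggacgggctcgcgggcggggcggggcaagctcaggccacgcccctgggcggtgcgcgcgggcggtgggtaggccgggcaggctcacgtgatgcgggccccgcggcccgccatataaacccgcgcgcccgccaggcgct
SREBF2 (chr22:41832905-41833104, plus strand): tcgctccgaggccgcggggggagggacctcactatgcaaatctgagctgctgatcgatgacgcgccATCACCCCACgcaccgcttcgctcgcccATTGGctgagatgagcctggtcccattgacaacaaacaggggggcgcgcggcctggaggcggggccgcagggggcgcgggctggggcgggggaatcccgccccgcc
SCD (chr10:100347033-100347232, plus strand): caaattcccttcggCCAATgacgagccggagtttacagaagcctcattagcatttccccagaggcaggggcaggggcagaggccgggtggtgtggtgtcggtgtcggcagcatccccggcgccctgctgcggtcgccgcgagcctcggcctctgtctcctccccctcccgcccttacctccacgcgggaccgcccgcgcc
ELOVL6 (chr4:110198616-110198815, minus strand): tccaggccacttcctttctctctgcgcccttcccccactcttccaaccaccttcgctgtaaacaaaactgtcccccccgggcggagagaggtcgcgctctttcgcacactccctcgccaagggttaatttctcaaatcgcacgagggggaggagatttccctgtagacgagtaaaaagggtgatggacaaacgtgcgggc

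A match describes letters and is neither a bound site nor a cause. CCAAT on either strand was present in 34.6% of all 35116 RefSeq windows, which run from 250 bases before to 50 after a start. Counting genes with a match in any of their windows, it was present for 41.7% of 15384 tested genes, for 13 of 15 sterol enzymes with a window and for 10 of 14 fatty acid enzymes. These counts include members that were not measured, and genes with several windows have more chances of a match. The matches shown lie between positions -170 and -70 from the start in the 4 lower genes, and LSS, TM7SF2 and INSIG1 have 1 each where HMGCS1 has 2. HMGCS1 has 2 windows, and its matches all lie in the one shown. SCD has 1 in the run shown and another further upstream, and ELOVL6 has 0. The sterol regulatory element was searched on both strands in the 10-letter form capitalised in SREBF2 and as the looser TCACNCCAC, which overlaps it. The shorter form was found for 1.43% of tested genes and for 2 of 37 members with a window, SREBF2 and ACSL1, and the longer form for 0.0585% of tested genes and for SREBF2. The LXR motif, AGGTCA repeated after 4 bases of any kind, was searched likewise and was in 0 of the 37, against 0.0195% of tested genes.

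Sterol synthesis enzymes were mostly lower in PC-3/Mc. Of 16 measured enzymes 10 were called lower, 3 higher and 3 were not called, where 22.7% of all genes were called lower. HMGCS1, SQLE, LSS and TM7SF2 were lower by at least 2-fold, against 5.58% of all genes. The median difference of the enzymes was -0.29 and their range -1.73 to 0.62. For 14 of the 16 no PC-3/Mc array overlapped the PC-3/S arrays, against 53.1% of all genes. In bulk RNA, fewer cells of a kind and less RNA per cell cannot be told apart.

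**Figure D1:**
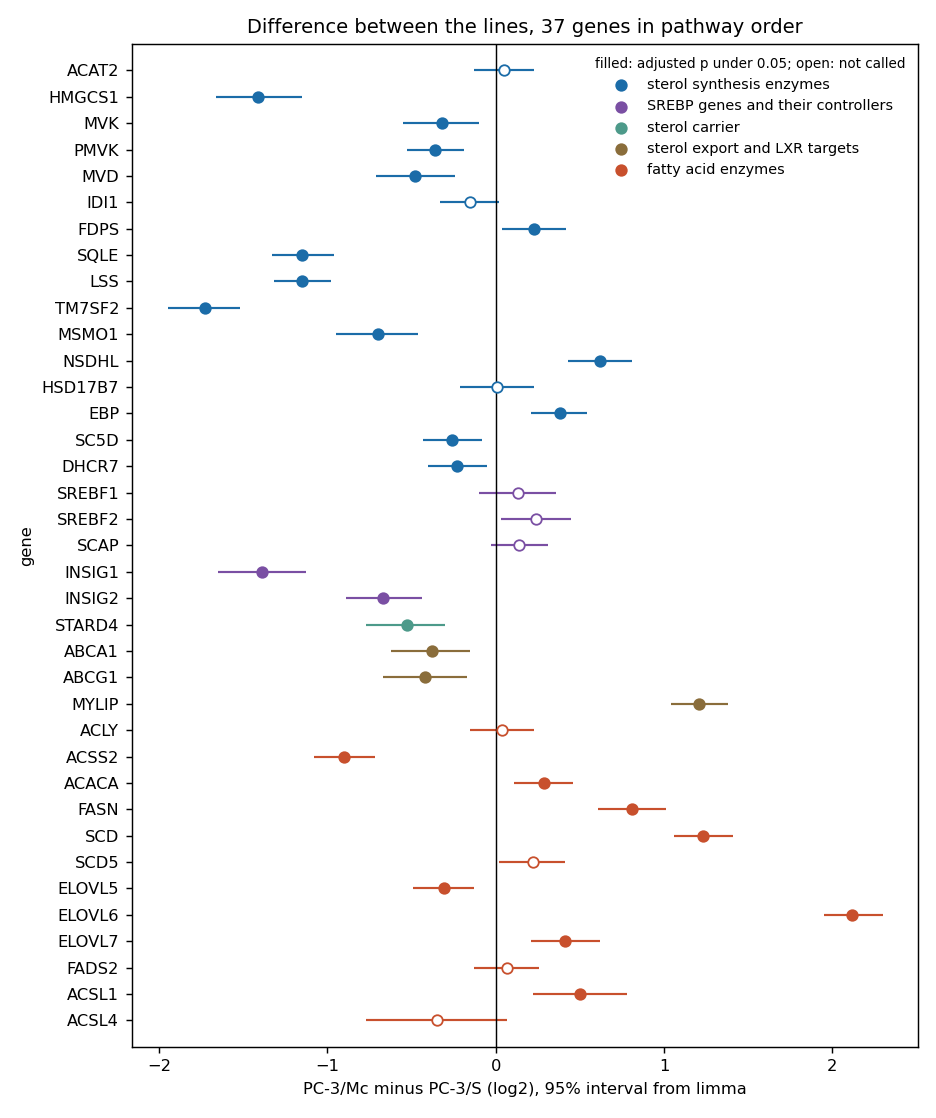
PC-3/Mc mean less PC-3/S mean (log2, horizontal) for the 37 measured genes in pathway order, with the 95% interval from limma (n = 3 arrays per line). Filled points passed an adjusted p under 0.05 and open points did not; sterol enzymes reach from -1.73 (TM7SF2) to 0.62 (NSDHL), and fatty acid enzymes from -0.90 (ACSS2) to 2.12 (ELOVL6).

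Among the enzymes that lead to mevalonate and the isoprene units, HMGCS1, the HMG-CoA synthase that condenses acetyl-CoA with acetoacetyl-CoA, differed most. It read 6.76, 6.60 and 6.38 in PC-3/Mc replicates 1, 2 and 3 and 8.03, 7.81 and 8.12 in PC-3/S. Every PC-3/Mc array lay more than 1 log2 unit below every PC-3/S array, a difference of -1.41 ± 0.12 or 2.65-fold (adjusted p = 2.2e-06). Its other probe set differed by -1.20, with a wider spread: PC-3/Mc replicate 3 at 6.78 and PC-3/S replicate 2 at 6.80 nearly met. The steps after it moved less. Mevalonate kinase (MVK) differed by -0.32 ± 0.10, phosphomevalonate kinase (PMVK) by -0.36 ± 0.08 and mevalonate decarboxylase (MVD) by -0.48 ± 0.10, with adjusted p of 0.021, 0.0025 and 0.0031. MVK was not called without PC-3/Mc replicate 1 (adjusted p = 0.084) or its replicate 2 (0.068), nor without replicate 2 of PC-3/S (0.076).

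The enzymes on either side of these behaved differently. ACAT2, the thiolase that makes acetoacetyl-CoA, was at 8.58 ± 0.07 and 8.52 ± 0.08 with overlapping arrays, and the 95% interval of its difference ran from -0.13 to 0.23. IDI1, the isopentenyl pyrophosphate isomerase, read 9.21 on each PC-3/Mc array and 9.42, 9.41 and 9.25 in PC-3/S. The arrays did not overlap, but the difference of -0.15 ± 0.08 was not called (adjusted p = 0.15), whereas a second bright probe set, at -0.24, was. FDPS, the synthase of farnesyl pyrophosphate, was called higher at 10.51 ± 0.10 against 10.29 ± 0.07 (0.23 ± 0.08, adjusted p = 0.047). That call was lost without any of 5 of the 6 arrays, PC-3/Mc replicate 3 being the exception, with adjusted p from 0.054 to 0.16. In limma's fit over all probe sets FDPS was not called (adjusted p = 0.061).

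The squalene to lanosterol steps were lower together. SQLE, the squalene epoxidase that uses oxygen to prepare squalene for cyclization, read 9.17, 9.14 and 9.01 in PC-3/Mc and 10.26, 10.17 and 10.33 in PC-3/S. LSS, the lanosterol synthase that closes the sterol rings, read 7.79, 7.78 and 7.69 against 8.91, 8.89 and 8.92. For both genes the arrays of a line lay close together while the lines stood about 1 log2 unit apart. The differences were -1.15 ± 0.08 for SQLE and -1.15 ± 0.07 for LSS (adjusted p = 8.6e-07 and 3.5e-07), and the dimmer probe sets above background gave -1.03 and -0.71 for SQLE and -0.93 for LSS.

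Downstream of lanosterol the enzymes split. TM7SF2, a sterol reductase, had the largest difference of the sterol enzymes, with a mean of 5.81 and a lowest array of 5.64 in PC-3/Mc and readings of 7.54, 7.52 and 7.57 in PC-3/S (-1.73 ± 0.10, 3.33-fold, adjusted p = 1.3e-07). Its PC-3/Mc arrays varied more (SD 0.19) than its PC-3/S arrays (SD 0.03). MSMO1, the methylsterol oxidase, read 8.52, 8.67 and 8.26 against 9.14, 9.11 and 9.32, a difference of -0.70 ± 0.11 (adjusted p = 0.00032). Against this direction, NSDHL, the dehydrogenase that acts with MSMO1 in removing methyl groups, read 9.21, 9.07 and 9.21 in PC-3/Mc and 8.62, 8.45 and 8.56 in PC-3/S. All of its PC-3/Mc arrays were the higher ones, by 0.62 ± 0.08 (adjusted p = 0.0001), and its dimmer probe set gave 0.63. EBP, the sterol isomerase, was higher as well, at 10.63, 10.54 and 10.61 against 10.20, 10.26 and 10.19 (0.38 ± 0.07, adjusted p = 0.0016), although its 2 dimmest probe sets, at 0.20 and 0.10, were not called.

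**Figure D2:**
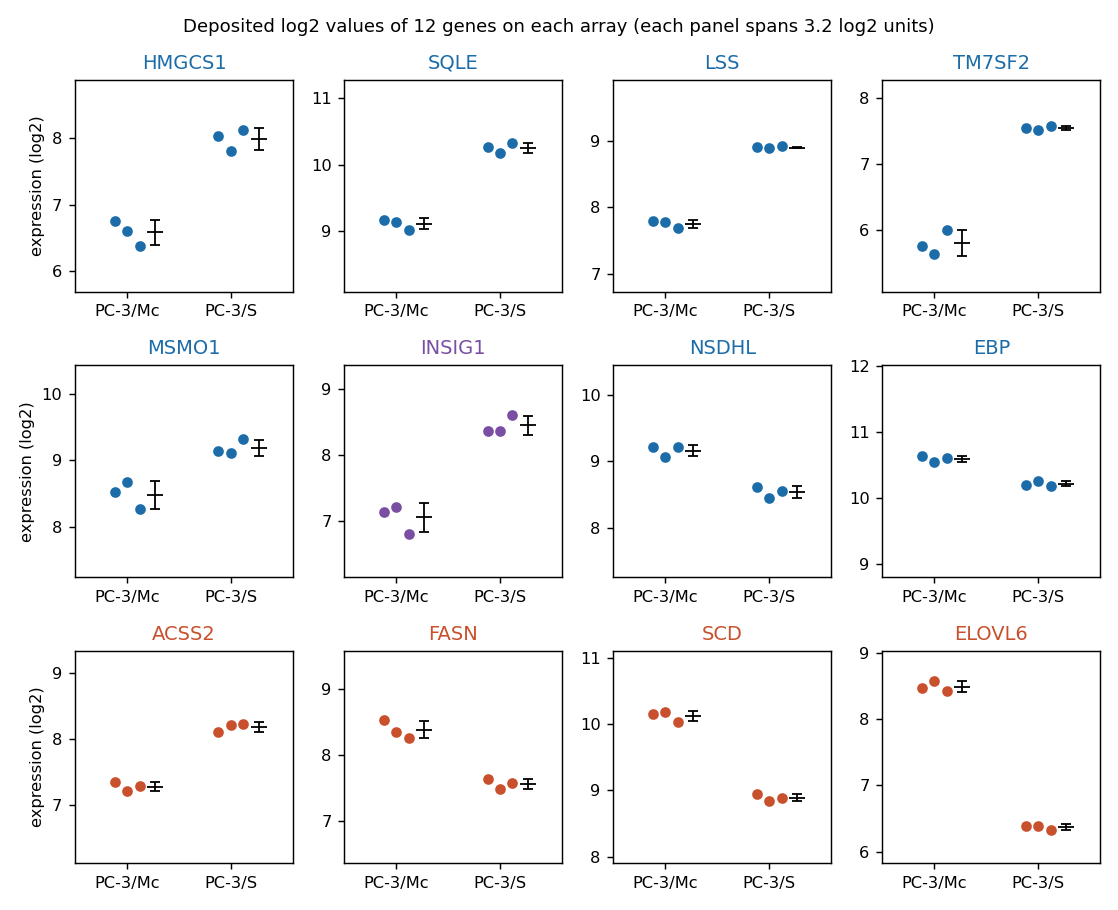
Deposited log2 expression (vertical) of 12 genes on the 3 arrays of each line, replicates 1 to 3 from left to right, with the mean ± SD beside them; blue marks sterol enzymes, purple INSIG1 and orange fatty acid enzymes. Each panel spans 3.2 log2 units, and in every panel the arrays of the lines are apart, from EBP (0.38) to ELOVL6 (2.12).

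SC5D and DHCR7, the last measured enzymes of the chain, differed little, and so did HSD17B7, which acts earlier. SC5D, the sterol desaturase, was at 9.05 ± 0.09 against 9.31 ± 0.03 (-0.26 ± 0.08, adjusted p = 0.022), and DHCR7, which reduces the immediate precursor of cholesterol, at 8.62 ± 0.08 against 8.85 ± 0.05 (-0.23 ± 0.08, adjusted p = 0.037). Neither call was firm, and in the fit over all probe sets DHCR7 was not called (adjusted p = 0.051). SC5D was not called without PC-3/Mc replicate 3 or any 1 of the PC-3/S arrays (adjusted p = 0.055 to 0.068), and DHCR7 was not called without any of the 6 arrays except PC-3/Mc replicate 3 (0.073 to 0.11). HSD17B7, the ketoreductase that completes the removal of methyl groups, was at 8.47 ± 0.19 and 8.46 ± 0.05, with a 95% interval from -0.21 to 0.23. Its only probe set is of the _x_at kind, which can pick up related sequences.

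The transcripts of the SREBP factors themselves were not called, while both INSIG transcripts were lower in PC-3/Mc. SREBF1 read 7.26, 6.90 and 7.16 in PC-3/Mc and 6.97, 7.07 and 6.89 in PC-3/S, so that the lines overlapped (0.13 ± 0.10, 95% interval -0.10 to 0.36). SREBF2 read 7.19, 7.03 and 7.13 against 6.79, 7.06 and 6.79 (0.24 ± 0.10, adjusted p = 0.066), and PC-3/S replicate 2 alone reached the PC-3/Mc arrays. Without that array SREBF2 was called higher (0.33, adjusted p = 0.019), and its other probe sets gave 0.35, called, and -0.19, not called. SCAP was at 8.80 ± 0.08 and 8.65 ± 0.01 (0.14 ± 0.08, adjusted p = 0.18). Array values describe transcripts and not the cleavage by which these factors are switched on.

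INSIG1 had the clearest difference of this control system. It read 7.14, 7.22 and 6.81 in PC-3/Mc and 8.37, 8.37 and 8.61 in PC-3/S, every PC-3/S array being the higher, by -1.39 ± 0.12 or 2.63-fold (adjusted p = 2.6e-06). Its other 2 probe sets gave -1.38 and -1.19. INSIG2, its paralog, was lower by less, at 7.18, 7.21 and 6.87 against 7.80, 7.70 and 7.75 (-0.67 ± 0.10, adjusted p = 0.00021). Of the 5 genes 2 were thus called lower and 0 higher by limma, where 22.7% of all genes were called lower and 23.2% higher. With so few genes these counts are not read as a lean of the list. SREBF2, not called, had an unadjusted p under 0.05. STARD4, a carrier that moves cholesterol between membranes, was at 7.43, 7.66 and 7.31 in PC-3/Mc and 8.05, 7.85 and 8.09 in PC-3/S (-0.53 ± 0.11, adjusted p = 0.0016). As for HMGCS1, SQLE, LSS, MSMO1, SC5D, INSIG1 and INSIG2, its lowest array was PC-3/Mc replicate 3. For MVK, PMVK, MVD, TM7SF2 and DHCR7, also called lower, that replicate was instead the highest PC-3/Mc array.

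Genes of sterol export and uptake went different ways. MYLIP, a ubiquitin ligase that marks lipoprotein receptors for degradation and an LXR target, read 7.34, 7.29 and 7.32 in PC-3/Mc and 6.17, 6.04 and 6.12 in PC-3/S (1.21 ± 0.08, 2.31-fold, adjusted p = 2.7e-07). Of its 6 probe sets 5 were called higher, by 1.16 to 1.87, in 1 case with PC-3/S at background, and 1, at 5.41 in PC-3/Mc, was not (-0.03). That probe set is the brightest left when those ending in _x_at or _s_at are left out, and the MYLIP call is then lost (adjusted p = 0.86). The cholesterol exporters ABCA1 and ABCG1, classic LXR targets, were dim. ABCA1 read 5.12, 5.21 and 4.86 against 5.31, 5.49 and 5.54, and ABCG1 4.90, 4.59 and 4.93 against 5.15, 5.39 and 5.14. Both were called lower (adjusted p = 0.012 and 0.0099), but PC-3/Mc was at background, so that the folds are only at least 1.2 and at least 1.03. For ABCG1 the PC-3/S replicates 1 and 3 also lay under the background reading, and without _x_at and _s_at probe sets its call was lost (-0.04, adjusted p = 0.81). A second ABCA1 probe set read 4.65 against 5.39, at least 1.16-fold lower.

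Fatty acid enzymes leaned the other way from the sterol enzymes. Of 12 measured, 6 were called higher in PC-3/Mc, 2 lower and 4 were not called, where 23.2% of all genes were called higher. SCD and ELOVL6 were higher by at least 2-fold, against 5.88% of all genes. The median difference was 0.25 and the range -0.90 to 2.12, and the arrays did not overlap for 9 of the 12, against 53.1% of all genes. ELOVL7, which lay under the background reading in both lines, is among those called higher and among those without overlap.

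**Figure D3:**
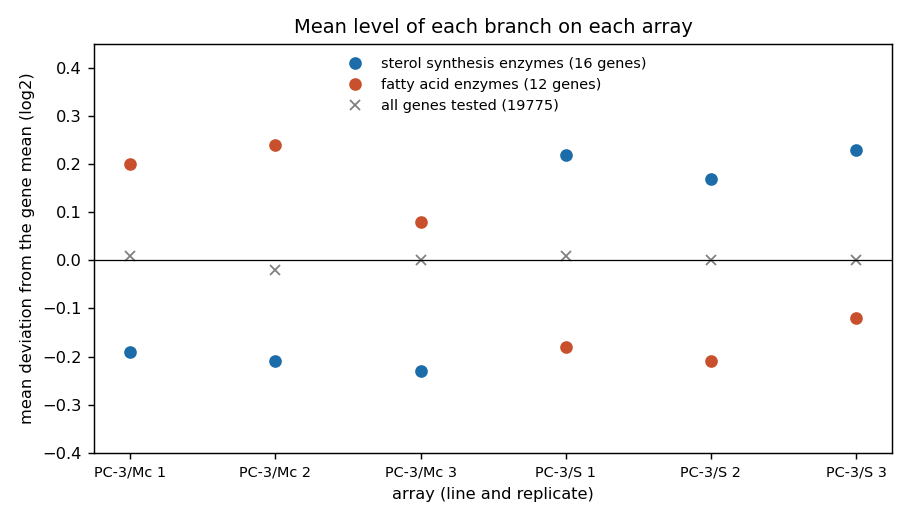
Mean over the genes of each branch of the deviation from the gene's mean over 6 arrays (log2, vertical), for each array (horizontal); blue is the 16 sterol enzymes, orange the 12 fatty acid enzymes and grey crosses all 19775 genes. Sterol enzymes sit at -0.19 to -0.23 in PC-3/Mc and 0.17 to 0.23 in PC-3/S, fatty acid enzymes at 0.08 to 0.24 and -0.21 to -0.12.

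On each of the 6 arrays the branches lay on opposite sides of their own means, as the plot of branch levels by array shows. The sterol enzymes averaged -0.19, -0.21 and -0.23 on the PC-3/Mc arrays and 0.22, 0.17 and 0.23 on the PC-3/S arrays. The fatty acid enzymes averaged 0.20, 0.24 and 0.08 and then -0.18, -0.21 and -0.12, while all genes stayed within 0.02 of 0. PC-3/Mc replicate 3 was the lowest PC-3/Mc array in both branches. The averages are descriptions, and the difference between the branches was not tested.

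Among the enzymes that supply acetyl-CoA and make palmitate, the changes were uneven. ACLY, the ATP citrate lyase that releases acetyl-CoA from citrate, was at 10.50 ± 0.12 and 10.46 ± 0.07 with a 95% interval from -0.15 to 0.23, and its other 2 probe sets were not called either. ACSS2, which makes acetyl-CoA from acetate, read 7.35, 7.21 and 7.29 in PC-3/Mc and 8.10, 8.21 and 8.23 in PC-3/S. It ran with the sterol enzymes, lower by -0.90 ± 0.08 (adjusted p = 3.8e-06). ACACA, the acetyl-CoA carboxylase that makes malonyl-CoA, read 9.23, 9.10 and 9.13 against 8.93, 8.84 and 8.81 (0.29 ± 0.08, adjusted p = 0.011), and its dimmer probe set, with PC-3/S at background, was at least 1.66-fold higher. FASN, the fatty acid synthase, read 8.52, 8.35 and 8.26 against 7.63, 7.48 and 7.58, with all PC-3/Mc arrays above all PC-3/S arrays (0.81 ± 0.09, 1.75-fold, adjusted p = 2.3e-05).

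The largest differences were in elongation and desaturation of the product. ELOVL6, the elongase that extends palmitate to stearate, read 8.47, 8.58 and 8.42 in PC-3/Mc and 6.39, 6.38 and 6.33 in PC-3/S. The lines stood about 2 log2 units apart while the arrays of each line lay close together, a difference of 2.12 ± 0.08 or 4.35-fold (adjusted p = 4.6e-09). Its other probe sets gave 2.02 and 0.41, both called. SCD, the stearoyl-CoA desaturase that turns stearate into oleate, read 10.15, 10.18 and 10.03 against 8.94, 8.84 and 8.88 (1.23 ± 0.08, 2.35-fold, adjusted p = 3.2e-07), and its 4 probe sets were all called higher, by 0.83 to 1.40. SCD5, its paralog, averaged 7.43 ± 0.14 and 7.21 ± 0.04 (0.22 ± 0.09, adjusted p = 0.068), which did not pass, but was called higher without PC-3/Mc replicate 3 (0.29, adjusted p = 0.016).

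**Figure D4:**
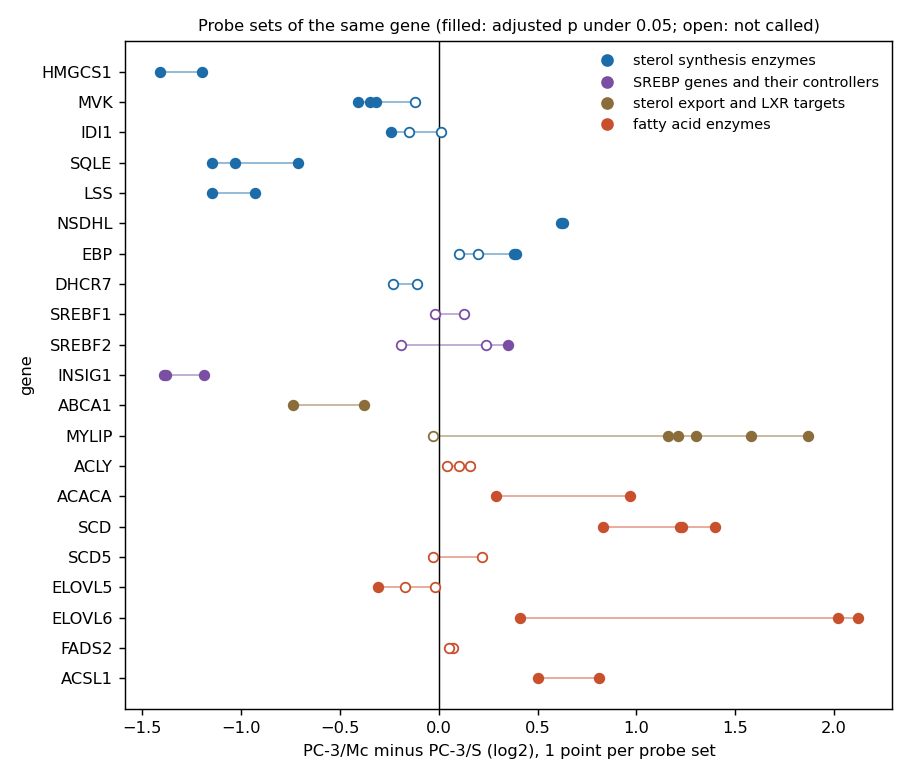
Difference between the lines (log2, horizontal) of each probe set for the 21 genes with more than 1 probe set above the background reading; filled points passed an adjusted p under 0.05 over all probe sets. No gene has probe sets called in both directions; MYLIP spans -0.03 to 1.87 and ELOVL6 0.41 to 2.12.

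Enzymes of polyunsaturated fatty acids and of fatty acid activation did not share one direction. ELOVL5, which elongates polyunsaturated chains, was lower at 11.22 ± 0.11 against 11.53 ± 0.04 (-0.31 ± 0.08, adjusted p = 0.0098); the mean of its 4 probe sets was not called (-0.07, adjusted p = 0.42). FADS2, which desaturates polyunsaturated precursors, was at 7.95 ± 0.12 and 7.88 ± 0.08 with a 95% interval from -0.13 to 0.26. ELOVL7 was called higher (0.41 ± 0.09, adjusted p = 0.0034), but read at most 4.29 and lay under the background reading in both lines, so no fold is given. ACSL1, an acyl-CoA synthetase that activates fatty acids, read 9.06, 9.35 and 8.88 against 8.45, 8.58 and 8.76 (0.50 ± 0.13, adjusted p = 0.0069), with 0.81 on its other probe set. ACSL4, which prefers arachidonate, had the widest spread of the members, at 6.26, 6.97 and 6.47 against 6.80, 6.68 and 7.28. It was not called (-0.35 ± 0.19, adjusted p = 0.16), but was called lower without PC-3/Mc replicate 2 (-0.56, adjusted p = 0.025).

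Several probe sets were available for 25 of the 37 members, as the plot of probe sets shows for those above background. None of these 25 had probe sets above background called in opposite directions in limma's fit over all probe sets, in which 41.7% of all probe sets were called. For 6 members, MVK, IDI1, EBP, SREBF2, MYLIP and ELOVL5, some probe sets were called and others were not.

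Further lipid genes, in 6 lists, had 31 of 61 called higher in PC-3/Mc and 14 lower, where 23.2% of all genes were called higher and 22.7% lower. The shares of all genes apply to each list below, and the lower calls, at 14 of 61, were near theirs. In a list of genes that process SREBP or degrade sterol-regulated proteins, which also holds TMEM97, 5 of 6 were higher and 1 lower. The median difference of the list was 0.41. TMEM97, a sterol-responsive membrane protein, differed by 1.11 ± 0.07, and ERLIN1, which acts in degradation at the endoplasmic reticulum, by 0.56 ± 0.08. The lower gene was RNF139, a ubiquitin ligase of that membrane (-0.92 ± 0.08, adjusted p = 2.4e-06). The proteases that cleave SREBP, MBTPS1 (0.23) and MBTPS2 (0.33), and ERLIN2 (0.49) were also called higher, and they are named after their values were seen.

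In the isoprenoid branch that leaves the sterol chain at farnesyl pyrophosphate, 6 of 12 were higher, 2 lower and 4 not called. Over all genes 23.2% were called higher and 22.7% lower. The median of the branch was 0.15 against -0.03 over all genes. PDSS1, a subunit of the synthase that makes the side chain of ubiquinone, read 9.51, 9.49 and 9.44 in PC-3/Mc and 7.65, 7.59 and 7.74 in PC-3/S (1.82 ± 0.08, adjusted p = 1.5e-08). Its partner subunit PDSS2 (0.70 ± 0.09) and PGGT1B, a protein prenyltransferase subunit (0.74 ± 0.10), were higher too. The 2 lower genes, named after their values were seen, were GGPS1 (-0.24) and ICMT (-0.39). Of further genes of fatty acid supply, elongation and desaturation, 8 of 16 were higher, 3 lower and 5 not called, against the same shares of all genes. Their median was 0.16. ACSL5 (1.07 ± 0.10) was at least 2.02-fold higher, MID1IP1, which promotes polymerization of acetyl-CoA carboxylase, differed by 0.95 ± 0.10, and ELOVL2, dim at 5.20 and 4.37, was at least 1.02-fold higher. The 3 lower genes, named after their values were seen, were ACACB (-0.38), TECR (-0.29) and ACSL6 (-0.31), the last close to background.

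Among 12 genes of sterol storage and trafficking 4 were called higher, 5 lower and 3 neither way (median difference -0.15), against 23.2% higher and 22.7% lower over all genes. VLDLR, a lipoprotein receptor, read 6.76, 7.01 and 6.64 in PC-3/Mc and 3.87, 4.12 and 4.03 in PC-3/S, at least 3.09-fold higher against the background reading. SCARB1, the receptor for high-density lipoprotein, differed by 1.41 ± 0.09, and NR1H3, which encodes an LXR, by 0.99 ± 0.09. LPCAT3 (0.63) was the remaining higher gene. The 5 lower genes, named after their values were seen, were the lysosomal cholesterol transporters NPC1 (-0.98) and NPC2 (-0.49), the lysosomal lipase LIPA (-0.50), the sterol transfer protein OSBP (-0.64) and STARD3 (-0.21).

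Of 8 genes of glycerolipid synthesis and storage 4 were higher, 2 lower and 2 not called, where 23.2% of all genes were higher and 22.7% lower. Their differences were positive for 4 and negative for 4, with a median of 0.35. PLIN2, a coat protein of lipid droplets, read 11.13, 11.06 and 11.03 against 9.58, 9.56 and 9.43 (1.55 ± 0.08, adjusted p = 5.7e-08). The acyltransferase genes AGPAT2 (0.92 ± 0.08) and GPAM (0.76 ± 0.11) were higher, and so was DGAT2 (0.74), while DGAT1 (-0.69) and PNPLA2 (-0.33) were lower, the last 3 named after their values were seen. Of 7 genes of fatty acid oxidation 4 were higher, 1 lower and 2 not called, with a median of 0.40. ACADM, an acyl-CoA dehydrogenase, differed by 1.23 ± 0.14 and CPT1A, which admits fatty acids to mitochondria, by 1.08 ± 0.08. PPARA, a nuclear receptor that controls such genes, was lower (-0.88 ± 0.08), and CPT2 (0.59) and HADHB (0.40), named after their values were seen, were higher.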

How the data were processed

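The series holds 6 arrays, 3 of each line, grouped by the sample titles. The authors deposited log2 expression values for 54675 probe sets, and their normalization method is not given in the labels. The base of the logarithm was read from the range of the values, 2.59 to 14.45. A platform annotation gave 1 symbol to 41091 probe sets, several to 1801 and none to 11721, apart from 62 control probe sets. For each of 19775 genes the brightest probe set, by its mean across all 6 arrays, was used. Two-sided tests without covariates came from lmFit and eBayes of limma 3.58.1 under R 4.3.3, adjusted by Benjamini-Hochberg over all genes, and called at an adjusted p under 0.05. Probe sets were fitted in the same way over all 41091. The script was tested on simulated data. All members were to be named, and up to 3 called genes of largest difference in each further lipid list. The members, lists and background reading were chosen with earlier results of these data known. Same-numbered arrays of the lines had correlations of deviations of -0.02, -0.259 and -0.38, against -0.131 to 0.338 for the other pairs. They show no shared signal of same-numbered arrays. Deviations from a mean of 3 arrays depend on each other, so they cannot settle whether the numbers pair the samples. The labels do not say. Promoter windows are those of RefSeq on GRCh38.p14. Alternatives covered scaling, probe set choice, dim genes, a replicate block, another eBayes setting and leaving out each array. Background correction and slide as a block could not be tried on processed values. Precision is limited by the small number of arrays (median SE 0.092).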

Additional observations from a re-analysis of the deposited data

How the results depend on the processing

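Of 468 values of single members under the alternatives, 422 kept their direction and their side of the threshold, and 21 of 37 members did so under all alternatives run. The sign changed 9 times. Under quantile normalization ACAT2 (-0.05), HSD17B7 (-0.10), ACLY (-0.03) and FADS2 (-0.02) turned negative, and so did HSD17B7 without PC-3/Mc replicate 1 (-0.08) and without replicate 2 of PC-3/S (-0.01), and ACLY without PC-3/Mc replicate 2 (-0.03). Leaving out 1 array at a time gave -0.08 to 0.11 for HSD17B7 and -0.03 to 0.08 for ACLY. With _x_at and _s_at probe sets removed, IDI1 (0.28) and MYLIP (-0.03) turned and were not called, on dim probe sets. That alternative leaves fewer genes, and 6903 of all genes were called under it against 9083 in the main fit. Of the members left, 22 kept their direction and side of the threshold, 3 lost a call without changing sign and 2 changed sign. The alternative called 7 sterol enzymes, 5 of them lower, and 5 fatty acid enzymes, 1 of them lower. Of the export and uptake genes 1 was called, with 1 lower and 0 higher. With all probe sets of a gene averaged, 1 fatty acid enzyme was called lower. Without genes below the 40th percentile of level, 1 export and uptake gene was called and 0 lower, since ABCA1 and ABCG1 are left out, and 1 gene of the SREBP system was higher, as with arrays centred on their medians (1). The median of the sterol enzymes was -0.39 after quantile normalization and -0.24 after centring, and that of the fatty acid enzymes 0.18 after quantile normalization, where ACACA (0.19, adjusted p = 0.064) and FDPS (0.15, adjusted p = 0.14) lost their calls and IDI1 gained one (-0.25, adjusted p = 0.032). The cause of these changes was not tested. Leaving out 1 array at a time gave 9 to 12 sterol enzymes called (2 to 3 higher, 7 to 9 lower), 8 to 9 fatty acid enzymes (6 to 7 higher, 2 to 3 lower), 0 to 1 SREBP genes higher, and medians of -0.32 to -0.26 and 0.20 to 0.30. Since the labels do not say that the replicate numbers pair the samples, the replicate block is given once. With it 10 sterol and 8 fatty acid enzymes were called, and 8090 of all genes against 9083.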

Other observations

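Among the 3 arrays of PC-3/Mc, replicate 3 was the lowest for 8 of the 16 sterol enzymes and 66.7% of the 12 fatty acid enzymes, against 36.1% of all genes tested. It was the lowest for all 6 genes in the list of SREBP processing and degradation of sterol-regulated proteins. The lean was not particular to that list, since replicate 3 was also the lowest for 10 of the 12 isoprenoid genes. It was the lowest for 71.4% of the fatty acid oxidation genes, and for 50% in the sterol storage and in the glycerolipid list. Among the further genes of fatty acid supply, elongation and desaturation it did not stand out. There replicates 2 and 3 were each the lowest for 43.8%, against 38.8% and 36.1% of all genes.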
